A study of Mus musculus with 167 samples.

Results

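The livers of untreated adult mice were followed over 17 weeks by comparing animals killed on days 91 and 119 of the study (late) with animals killed on days 1 and 7 (early). These were 56 of the 167 male C57BL/6 animals of the series, 27 early and 29 late, and each liver was measured once on an Affymetrix mouse expression array. Members were chosen by their labels alone: the control arm of all 3 genotypes, on those 4 days. There were 9 early and 9 late wild-type animals. The CAR/PXR knock-out, in which the genes of the drug-sensing nuclear receptors CAR and PXR are deleted, gave 8 early and 10 late animals. The human CAR/PXR line, in which human receptors replace the mouse ones, gave 10 early and 10 late. All of them had plain drinking water, and the other arm, which drank phenobarbital, enters only as a side comparison in the knock-out. A further 27 untreated animals of days 14 and 28 were used to place changes in time. Per the labels, mice were 9 to 11 weeks old at the start, an age chosen by the submitters to come after liver maturation, although a passage on phenobarbital dosing gives 8 weeks, and livers were taken between 9 and 11 in the morning. Each animal was sampled once, so that the comparison is between different animals. Age, time in the animal house and the date of sampling cannot be told apart.

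The adult male mouse liver makes plasma proteins, burns and stores fat, and clears drugs and hormones. Much of its sex-specific programme is set by the pulsatile release of growth hormone, which keeps male-biased genes high and female-biased genes low in males. Fatty acids taken up through transporters such as CD36 are either oxidised, under the receptor PPARα, or esterified and held in lipid droplets, whose coat proteins limit their breakdown. Receptors for interleukin 6 family cytokines on hepatocytes drive the acute phase response, and type I interferon keeps a set of antiviral genes at a basal level. In bulk RNA, fewer cells of a type and less RNA per cell cannot be told apart.

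The targeted genes went with the labels. Nr1i2, the PXR gene, read 6.91 to 7.95 log2 units in wild type, 3.33 to 3.75 in the knock-out and 3.38 to 4.19 in the human CAR/PXR line, whose human gene the mouse probes need not read. Nr1i3, the CAR gene, read 7.87 to 8.91, 4.67 to 5.11 and 4.85 to 5.39 in the same order. Hepatocyte markers, among them Alb, Ttr and Apoa1, had a mean level of 13.58 to 13.80 in every animal. In 12 of the 56 livers, 5 early and 7 late, the mean level of 11 pancreatic acinar enzymes exceeded 6, up to 11.18, against 5.03 to 6.00 in the rest. They lay in wild type in 4 early and 3 late animals, in the knock-out in 3 late ones, and in the human CAR/PXR line in 1 early and 1 late. Knock-out animal 3025, labelled day 91, also stood apart. Without it, 58 genes moved at least 1.5-fold and in all 3 genotypes. Over these genes animal 3025 lay a median of 23.4% of the way from the early to the late knock-out mean. It was nearer to the early mean in 37 of them. The other 9 late knock-out animals lay at 63.1% to 133%, and the 8 early ones at -17.0% to 17.1%. Those animals, unlike 3025, took part in the choice of the 58 genes, so that the comparison is uneven. Animal 3025 was kept as labelled, and values without it are given where they matter.

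Of 12437 genes tested with genotype as a block, 3427 (27.6%) differed between late and early livers at an adjusted p under 0.05. Most differences were small: 59 of the 1798 higher genes (14.5% of all tested) and 37 of the 1629 lower genes (13.1%) reached 1.5-fold. Within a genotype, 1954 genes (15.7%) were called in wild type, 1004 (8.07%) in the knock-out and 895 (7.2%) in the human CAR/PXR line. In wild type 848 were higher (6.82%) and 1106 lower (8.89%), in the knock-out 740 (5.95%) and 264 (2.12%), and in the human CAR/PXR line 486 (3.91%) and 409 (3.29%). These splits moved with the scaling: after quantile normalization of the untreated arrays they were 1014 and 840 in wild type, and 572 and 408 in the knock-out. A gene was counted as shared where it was called in each genotype with 1 sign. There were 293 such genes, 2.36% of those tested, with 188 higher (1.51%) and 105 lower (0.844%). Among them, 36 of the higher and 17 of the lower reached 1.5-fold. Without animal 3025 the shared genes numbered 342, with 280 of the 293 among them; knock-out calls then numbered 1076. Without the 12 animals with pancreatic signal they numbered 142, with 137 of the 293 among them, and all 188 higher and 105 lower genes were still called with genotype as a block. Of the 24 largest shared changes 19 were still shared then, and Cav1, G0s2, Ighm, Fgl1 and Il6ra were not. Nor were Acot3, Gstt3, Mcm4, Me1, Bag3, Hspa8, Ifit1, Igf1 and Cyp1a2 among the smaller shared changes given here. Values of Fitm2, Mogat1 and Aldh1a7 are not given for that setting. In 3 genes every late animal lay beyond every early animal in all 3 genotypes: Osbpl3 and Cox19 were higher (2 genes, 0.0161%) and Selenbp1 was lower (1 gene, 0.00804%).

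The largest shared rise was that of Zfp979, a zinc finger gene, which was 4.28-fold higher late. All its levels before the late days lay below the array medians of 5.146 to 5.231. Zfp979 thus passed the filter on dim genes only through the late animals in which it was high. In wild type, its log2 level was 2.72 to 3.76 early (median 3.25) and 4.31 to 5.81 late (median 5.39). In the knock-out, Zfp979 read 3.05 to 3.94 early (median 3.32) and 3.47 to 6.26 late (median 5.65). In the human CAR/PXR line it read 3.09 to 4.35 early (median 3.84) and 5.54 to 6.85 late (median 6.14). Early and late animals overlapped only in the knock-out, through animal 3025 at 3.47. The difference was 2.10 ± 0.13 (log2, SE; adjusted p = 5.39e-18), and 2.01, 1.97 and 2.29 in wild type, knock-out and human CAR/PXR. Gnai1, an inhibitory G protein subunit, rose by almost the same amount in each genotype, 1.57, 1.63 and 1.57 (3.01-fold over genotypes; adjusted p = 8.7e-17). Its wild-type levels went from 5.80 to 6.50 early (median 6.07) to 7.09 to 8.04 late (median 7.67), without overlap.

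**Figure D1:**
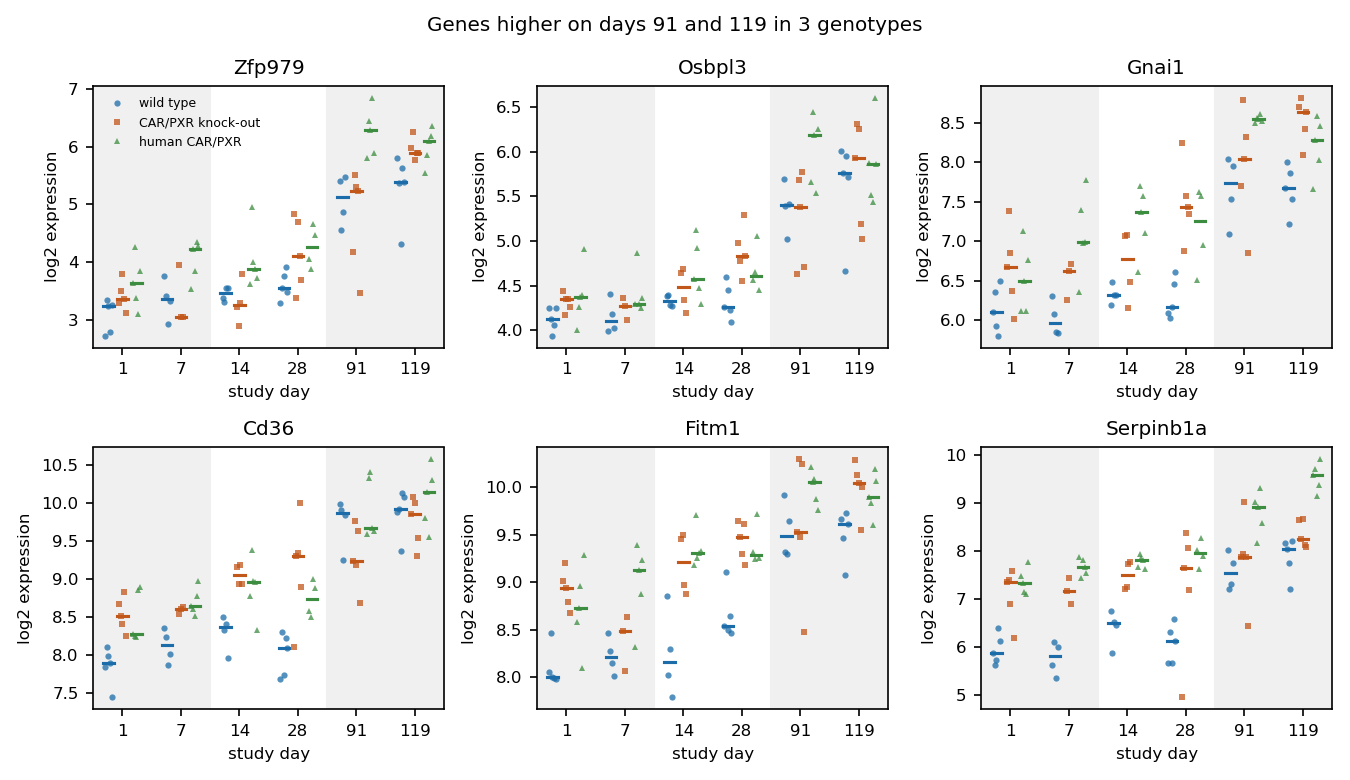
Log2 expression of 6 genes that were higher late in all 3 genotypes, 1 point per animal, by study day; short bars are medians of a genotype and day, and the shaded days are the early (1, 7) and late (91, 119) ones. In wild type the medians of days 91 and 119 lie above those of all earlier days, and knock-out animal 3025 is the low point of day 91 in Zfp979, Gnai1, Cd36, Fitm1 and Serpinb1a.

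Osbpl3, which encodes an oxysterol-binding protein-related protein, was low in early livers, below every array median. It thus needed late animals to pass the filter on dim genes, so that its difference and p are not free of that choice. It read 3.94 to 4.41 early (median 4.13) and 4.66 to 6.01 late (median 5.69) in wild type. Osbpl3 read 4.12 to 4.44 early (median 4.31) and 4.63 to 6.31 late (median 5.53) in the knock-out. In the human CAR/PXR line it read 4.00 to 4.91 early (median 4.33) and 5.44 to 6.60 late (median 5.86). No late animal of any genotype lay within the early range, and the difference was 1.38 ± 0.10 (adjusted p = 1.66e-16). Serpinb1a, an inhibitor of neutrophil proteases, rose by 1.51, and by 1.87, 0.97 and 1.65 in the order above; its groups overlapped only through animal 3025. Lgals1 (galectin-1) rose by 1.45 and Olig1, a transcription factor best known from glia, by 1.39, again with that animal as the only overlap. Serpina7, the thyroxine-binding globulin of plasma, rose by 1.31 (1.34, 1.47 and 1.15). Cav1 (caveolin-1), a membrane coat protein abundant in endothelium and fat, rose by 1.11, and in the knock-out by 1.28 with animal 3025 and 1.54 without it.

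Genes of fat uptake and storage rose together. Of 15 lipid droplet genes tested, 13 were higher late and none lower, against 14.5% of all genes; the median difference was 0.40 against 0.00 over all genes. Its shared members have different roles: Cd36 imports fatty acids, Fitm1 and Fitm2 act in the budding of droplets, G0s2 inhibits the lipase that empties them, and Mogat1 makes diacylglycerol.
Cd36 went from 7.44 to 8.35 early (median 7.99) to 9.25 to 10.13 late (median 9.91) in wild type. It went from 8.25 to 8.83 (median 8.57) to 8.69 to 10.08 (median 9.59) in the knock-out. In the human CAR/PXR line Cd36 went from 8.23 to 8.97 (median 8.63) to 9.55 to 10.58 (median 9.97). Only animal 3025 overlapped. The rise was 1.41 ± 0.09 (2.66-fold, adjusted p = 1.66e-17). By genotype the rise of Cd36 was 1.85, 0.98 and 1.40. The knock-out and wild-type rises differed (adjusted p = 0.038 for that pair of genotypes), but not in the joint test of 3 genotypes (adjusted p = 0.0942).

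Fitm1 rose by 1.18 ± 0.09, and by 1.37, 1.07 and 1.09 in wild type, knock-out and human CAR/PXR. Its wild-type level was 7.98 to 8.47 early (median 8.05) and 9.07 to 9.92 late (median 9.61). G0s2 rose by 1.22 ± 0.16 (adjusted p = 2.21e-08), with wide groups: 8.64 to 11.58 early (median 9.65) and 9.04 to 11.68 late (median 11.17) in the knock-out, where 9 of 10 late animals lay within the early range. Plin2, the main droplet coat protein of hepatocytes, rose less, by 0.35. Cidea, which fuses droplets and is known from brown fat, had the largest rise of all genes over genotypes, 2.12 ± 0.27 (adjusted p = 1.4e-08), but was not shared. All its early levels lay below the array medians, so that Cidea too needed late animals to pass the filter on dim genes. Cidea rose by 3.16 in the human CAR/PXR line, from 3.48 to 4.09 early (median 3.81) to 4.84 to 8.82 late (median 7.32), without overlap. In the knock-out it rose by 2.37, with late animals spread from 3.57 to 8.06 (median 6.44). In wild type the late range of Cidea was 3.96 to 5.94 (median 4.38) and the difference of 0.70 was not called (adjusted p = 0.268). The test of a difference between genotypes gave an adjusted p of 0.083 for Cidea. Without animal 3025 the knock-out rise of Cidea was 2.65 and that test called it (adjusted p = 0.0411).

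Genes of fatty acid oxidation under PPARα moved the same way. Of 22 tested, 16 were higher and 1 lower, against 14.5% and 13.1% of all genes, with a median of 0.26. Of the 22, 6 were shared, against 2.36% of all genes. Acot3, a peroxisomal acyl-CoA thioesterase, rose by 1.01 ± 0.11 (1.24, 0.59 and 1.17), Vnn1, a pantetheinase, by 1.13 and Pdk4, which shuts off glucose oxidation, by 0.61. Cyp4a14, a fatty acid ω-hydroxylase, rose by 3.20 in wild type, from 5.19 to 9.28 early (median 6.76) to 8.29 to 11.24 late (median 10.43). In the altered lines Cyp4a14 was already high early, with medians of 9.85 and 10.57, and differences of 0.67 and 0.74 were not called. Its wild-type and knock-out differences differed (adjusted p = 0.044 for that pair), with 0.0555 in the joint test. Angptl4 was the 1 lower member, at -0.33. The direct repeat bound by PPARα, sought as AGGNCA and AGGNCA with 1 base between on either strand, matched 1 of 18 promoters of this list (Fabp1, 5.56%), 0 of 13 of the lipid droplet list, 0 of 150 of the shared rises and 0.451% of all genes with a promoter. Of 19 lipogenesis genes 11 were higher and none lower, against 14.5% and 13.1% of all genes, with a median of 0.19. Me1, the malic enzyme, rose by 0.70 and was shared, while Elovl6 (0.84) and Fasn (0.67) were not. Without day 1 neither Elovl6 (0.35, adjusted p = 0.103) nor Fasn (0.13, adjusted p = 0.613) was called over genotypes. Of those 19 genes, 6 were also higher on day 7 than on day 1, against 1.21% of all genes. The early days were thus themselves unequal for this list.

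Of 14 genes of retinoid metabolism 4 were higher and 3 lower, against 14.5% and 13.1% of all genes, with a median of 0.01. Rdh16 was the 1 shared member. Rdh16, a retinol dehydrogenase, rose by 0.78, from 7.89 to 8.79 early (median 8.40) to 9.15 to 9.70 late (median 9.44) in wild type. Of 29 phase I drug-metabolising enzymes 13 were higher and 4 lower, against 14.5% and 13.1% of all genes, with a median of 0.07. In wild type 16 were higher (median 0.19), in the knock-out 2 (-0.04) and in the human CAR/PXR line 5 (0.09). Of all genes 6.82%, 5.95% and 3.91% were higher in the same order. Lower were 4, 4 and 2, against 8.89%, 2.12% and 3.29% of all genes, and the interaction called 3 of the 29. Their shared members were 1 rise, Aldh1a7 (0.37), and 2 falls, Cyp1a2 (-0.34) and Cyp2c70 (-0.42). The glutathione transferases Gsta2 and Gstt3 rose by 0.81 and 0.74. Of 27 conjugation enzymes 10 were higher and 3 lower, against 14.5% and 13.1% of all genes. Their median was 0.05, and Nat8 (0.50) was among the higher ones. Of 14 NRF2 targets 9 were higher and 1 lower, against the same shares of all genes (median 0.13). Nqo1, a quinone reductase, was at 0.34 and Hmox1, haem oxygenase, at 0.31. Mcm4, a subunit of the replicative helicase, was the 1 shared gene of the S phase list and rose by 0.46; 8 of 23 members of that list were higher and 2 lower, against 14.5% and 13.1% of all genes, with a median of 0.06.

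Heat shock chaperones were higher late in 9 of 11 genes tested, against 14.5% of all genes, and lower in none, with a median of 0.31. In wild type 2 were higher, in the knock-out 4 and in the human CAR/PXR line 4, against 6.82%, 5.95% and 3.91% of all genes. Bag3 (0.45) and Hspa8 (0.34) were shared. Without the animals with pancreatic signal 7 of 11 were higher over genotypes but 0 in wild type, so that neither gene stayed shared. Hspa1b, the inducible Hsp70, rose by 0.68 ± 0.19 over genotypes, and in no genotype alone. It was not called without the animals with pancreatic signal (0.48, adjusted p = 0.0853), nor without day 1, day 119 or the knock-out, where its difference was as low as 0.28 (adjusted p up to 0.437). Hsph1, its nucleotide exchange factor, rose by 0.52 ± 0.11 (adjusted p = 0.000241), from 8.88 to 10.07 early (median 9.49) to 9.67 to 10.18 late (median 9.86) in wild type, with overlap in every genotype. Without day 1 the difference of Hsph1 was 0.27 and was not called (adjusted p = 0.157). Its promoter is shown because it carries the heat shock element sought here, GAA, TTC and GAA with any 2 bases between each, on either strand, which 33.3% of the 9 list members with a RefSeq promoter held, against 0.662% of all 27025 genes with one and 0 of the 150 shared rises with one. A match is a description of these letters, not a measured site. Of the 2 annotated promoters of Hsph1 the first listed, which holds a match, is printed. That match begins 36 bases after the annotated start. The window runs from 250 bases before to 50 after the annotated start (RefSeq, GRCm38.p6, chr5:149636287-149636586, minus strand), and the match is in capitals.
Hsph1: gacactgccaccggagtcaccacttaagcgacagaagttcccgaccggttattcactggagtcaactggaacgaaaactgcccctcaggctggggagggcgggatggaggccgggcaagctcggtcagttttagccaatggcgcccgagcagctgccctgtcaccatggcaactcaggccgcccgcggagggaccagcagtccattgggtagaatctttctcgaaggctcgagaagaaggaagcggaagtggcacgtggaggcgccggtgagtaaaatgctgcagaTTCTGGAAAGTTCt

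Interferon-stimulated genes were lower late. Of 21 tested, 11 were lower and 1 higher, against 13.1% of all genes lower, and the median was -0.15. Usp18, which damps the interferon receptor, and Ifit1, an antiviral RNA-binding protein, were shared. Usp18 read 7.51 to 8.07 early (median 7.87) and 6.96 to 7.69 late (median 7.16) in wild type. It fell by 0.61, 0.60 and 0.53 in wild type, knock-out and human CAR/PXR (adjusted p = 4.29e-09 over genotypes). Ifit1 fell by 0.51 ± 0.08, and its neighbour Ifit3 by 0.29. Early and late animals of Ifit1 overlapped in all 3 genotypes, for example 6.87 to 7.44 early and 6.52 to 7.16 late in wild type. The promoters of both are printed to show the interferon-stimulated response element sought, GAAA, any 2 bases and GAAAC, on either strand. It was held by 46.7% of the 15 list members with a RefSeq promoter and by 0.944% of all genes with one. Among the 84 shared falls with a promoter 1 held it, Ifit1 itself (1.19%). Each has 2 matches, both on the opposite strand and in capitals. The windows are chr19:34640639-34640938 for Ifit1 and chr19:34583279-34583578 for Ifit3, both on the plus strand of GRCm38.p6.
Ifit1: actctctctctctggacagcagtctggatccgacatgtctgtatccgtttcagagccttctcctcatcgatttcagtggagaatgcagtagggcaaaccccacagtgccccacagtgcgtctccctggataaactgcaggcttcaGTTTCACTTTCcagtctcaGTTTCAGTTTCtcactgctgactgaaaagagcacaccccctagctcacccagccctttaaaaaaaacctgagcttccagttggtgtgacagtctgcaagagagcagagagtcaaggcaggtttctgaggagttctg
Ifit3: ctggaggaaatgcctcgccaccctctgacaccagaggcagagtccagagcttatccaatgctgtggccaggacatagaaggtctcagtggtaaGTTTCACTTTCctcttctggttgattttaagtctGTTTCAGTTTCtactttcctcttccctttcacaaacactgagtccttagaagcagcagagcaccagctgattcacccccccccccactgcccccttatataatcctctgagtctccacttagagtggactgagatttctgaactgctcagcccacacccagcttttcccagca

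Among the shared falls, Enho moved most. It encodes adropin, a secreted peptide of the liver, and its log2 level in wild type was 8.15 to 8.98 early (median 8.47) and 5.83 to 6.90 late (median 6.32). In the knock-out, Enho read 7.63 to 8.63 early (median 8.03) and 5.80 to 8.46 late (median 6.51), and in the human CAR/PXR line 7.16 to 8.66 early (median 7.82) and 5.73 to 7.17 late (median 6.24). Overlap came from animal 3025, at 8.46, and from 1 human CAR/PXR animal at 7.17. The fall was 1.77 ± 0.13 on the log2 scale (early 3.40-fold higher; adjusted p = 6.37e-16). Enho fell by 2.21, 1.51 and 1.60 in the 3 genotypes, and in the knock-out by 1.72 without animal 3025.

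Selenbp1, a selenium-binding protein with methanethiol oxidase activity, was abundant and fell in each genotype without overlap. It read 12.92 to 13.39 early (median 13.17) and 11.78 to 12.26 late (median 12.01) in wild type. Selenbp1 read 12.60 to 13.09 early (median 12.93) and 11.68 to 12.47 late (median 12.19) in the knock-out. In the human CAR/PXR line it read 12.64 to 13.25 early (median 12.93) and 11.76 to 12.58 late (median 12.08). The fall was 0.91 ± 0.06 (adjusted p = 1.2e-17).

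Of the 12 largest shared falls 3 were of receptors, Avpr1a, Lifr and Il6ra. Avpr1a, the vasopressin receptor of hepatocytes, fell by 0.93 ± 0.08, from 8.66 to 9.21 early (median 9.05) to 7.69 to 8.21 late (median 7.87) in wild type. Lifr, the receptor for leukaemia inhibitory factor, fell by 0.83 ± 0.07 (0.99, 0.63 and 0.86), and Il6ra, the interleukin 6 receptor, by 0.76 (0.51, 0.74 and 0.99). Wild-type Lifr was 11.07 to 12.09 early (median 11.80) and 10.47 to 11.04 late (median 10.80). Il6ra overlapped in all genotypes, with 1 late animal of the human CAR/PXR line inside the early range. Cdh1 (E-cadherin), a periportal junction protein, fell by 0.78 ± 0.07, from 9.85 to 10.42 early (median 10.10) to 8.96 to 9.56 late (median 9.23) in wild type. Cdh1 was also lower on day 119 than on day 91, by 0.30 (adjusted p = 0.017).

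Cyp39a1, an oxysterol hydroxylase of bile acid synthesis, fell by 0.88 (0.94, 0.92 and 0.79). Acsm2, a medium-chain acyl-CoA synthetase, fell by 0.96, and Pde5a, a cyclic GMP phosphodiesterase, by 0.83 (1.24, 0.75 and 0.52). Fgl1, a secreted fibrinogen-like protein, fell by 0.73, Ip6k2, an inositol phosphate kinase, by 0.71 and Chic1 by 0.70. Human CAR/PXR animal 5023 of day 91 was high in Fgl1 late, at 13.13 against 11.78 for the next, and also in the mean of the acute phase list, at 12.05 against 11.14. Peg3, an imprinted gene, fell by 0.62, and Igf1, the growth hormone target, by 0.19 (0.22, 0.17 and 0.18).

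**Figure D2:**
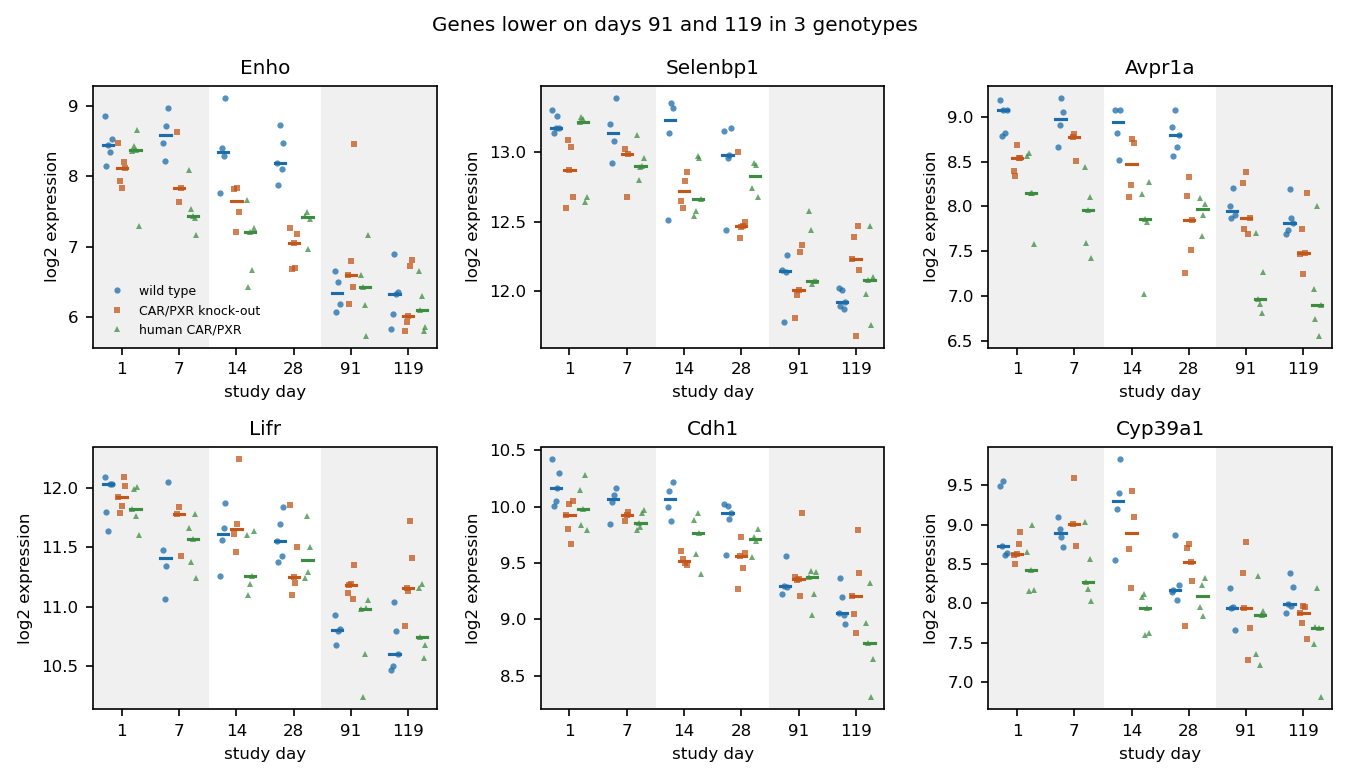
Log2 expression of 6 genes that were lower late in all 3 genotypes, 1 point per animal, by study day; short bars are medians of a genotype and day, and shaded days are the early and late ones. Selenbp1 shows no overlap between shaded sides within a genotype, and in Enho the knock-out point at 8.46 on day 91 is animal 3025.

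Acute phase proteins were lower late in 15 of 21 genes and higher in 1, against 13.1% and 14.5% of all genes, with a median of -0.13. In wild type 6 were lower, in the knock-out 8 and in the human CAR/PXR line 2. Of all genes 8.89%, 2.12% and 3.29% were lower in the same order. Without the animals with pancreatic signal 11 of 21 were lower over genotypes, with a median of -0.14, and 0 in wild type. Saa1, serum amyloid A, fell by 1.04 ± 0.23 (adjusted p = 0.000395) and Lcn2, lipocalin-2, by 0.89. Neither was shared, and neither was called without day 119 or without wild type. Nor was Lcn2 called without day 7, the knock-out or the animals with pancreatic signal (adjusted p up to 0.211 over these settings). Saa1 read 9.99 to 11.46 early (median 10.49) and 8.65 to 9.59 late (median 9.20) in wild type, without overlap. Without the animals with pancreatic signal the wild-type difference of Saa1 was -1.4 and not called (adjusted p = 0.1325). In the human CAR/PXR line it read 9.06 to 12.65 early (median 10.30) and 8.61 to 13.87 late (median 9.32), with animal 5023 highest. Of 16 immediate early and glucocorticoid-responsive genes 6 were lower and 2 higher, against 13.1% and 14.5% of all genes (median -0.17), with the metallothioneins Mt1 and Mt2 at -0.95 and -0.64 and Tsc22d3, a glucocorticoid target, at -0.64.

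Male-biased genes were lower late: 12 of 17 fell, against 13.1% of all genes, and none rose, with a median of -0.21. In wild type 11 fell (median -0.38), in the human CAR/PXR line 8 (-0.19) and in the knock-out 3 (-0.14). Of all genes 8.89%, 3.29% and 2.12% were lower in the same order. The test of a difference between genotypes called none of the 17. Hsd3b5, a steroid dehydrogenase of male liver, read 12.13 to 12.64 early (median 12.48) and 11.29 to 12.10 late (median 11.93) in wild type. It fell by 0.66 there, by 0.71 in the human CAR/PXR line and by 0.22 in the knock-out, where it was not called (adjusted p = 0.351). Early levels of Hsd3b5 were 11.72 to 12.23 in the knock-out (median 11.96) and 11.10 to 12.36 in the human CAR/PXR line (median 12.02). Slco1a1, an organic anion carrier, fell by 0.47 over genotypes and Ugt2b38, a glucuronosyltransferase, by 1.00. Of 11 female-biased genes 6 were higher and 2 lower, against 14.5% and 13.1% of all genes, with a median of 0.09.

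**Figure D3:**
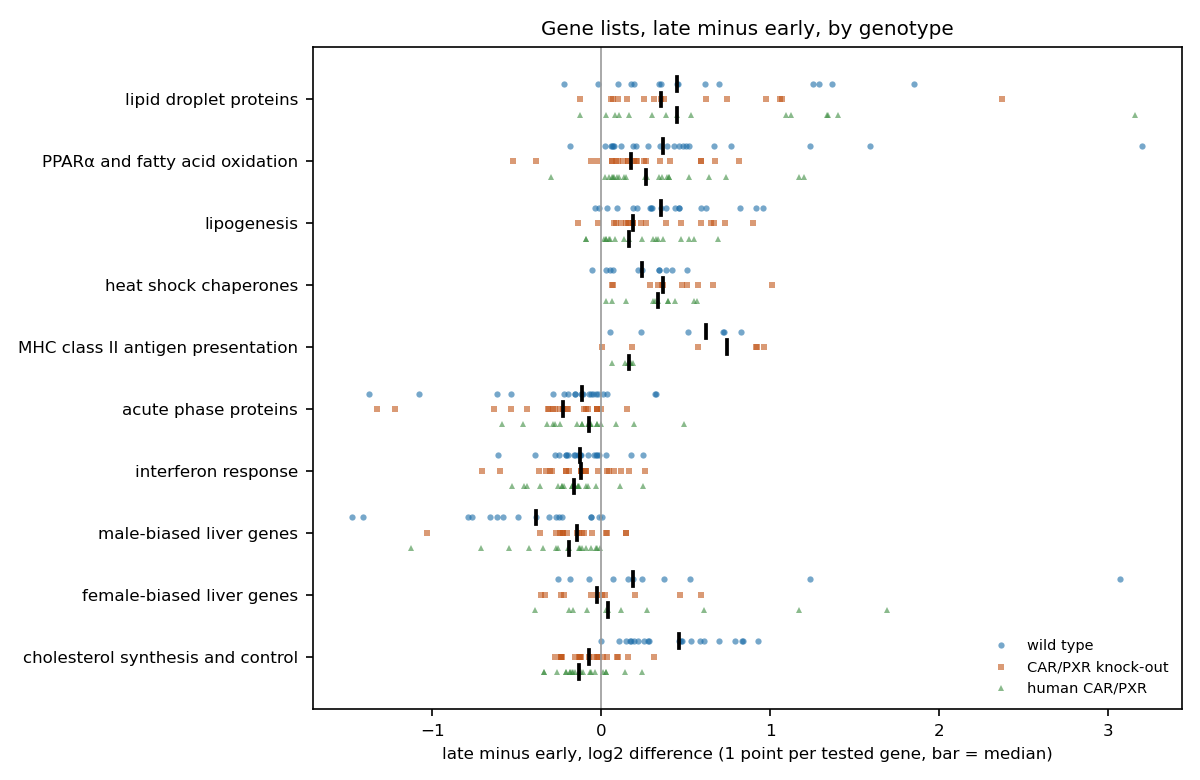
Late minus early differences (log2) of the tested genes of 10 lists, 1 point per gene, in wild type, knock-out and human CAR/PXR; black bars are medians. Lipid lists and heat shock chaperones lie mostly right of 0 in all genotypes, while the medians of the cholesterol genes are 0.46, -0.07 and -0.13.

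The genotypes were compared by an interaction of genotype and period, which called 18 genes (0.145%), none of them shared, and 2 without the animals with pancreatic signal. By pairs of genotypes, the late minus early difference was called unequal between knock-out and wild type in 78 genes (0.627%), between the human CAR/PXR line and the knock-out in 1 (0.00804%) and between the human CAR/PXR line and wild type in 0. Cyp2b9, a female-biased cytochrome and target of CAR, had the smallest p (adjusted p = 2.24e-06). All its early levels lay below the array medians, so that it needed late animals to pass the filter on dim genes. In wild type it was near the floor early, 3.63 to 4.08 (median 3.82), and 5.72 to 7.52 late (median 7.17), a rise of 3.07. In the human CAR/PXR line Cyp2b9 went from 3.84 to 4.28 (median 4.03) to 4.12 to 7.04 (median 6.14), a rise of 1.69. In the knock-out it stayed at 3.51 to 4.62 early (median 3.71) and 3.45 to 4.12 late (median 3.75), a difference of -0.06. Nr1i3, the gene of CAR, was itself 0.29 higher late in wild type (adjusted p = 0.00909), but was not called over genotypes. Whether this bears on Cyp2b9 was not tested. Wild-type groups of Cyp2b9 did not overlap, 2 of 10 late human CAR/PXR animals lay within the early range, and 9 of 10 late knock-out animals did. Without the animals with pancreatic signal the differences of Cyp2b9 were 3.14, -0.06 and 1.87 (adjusted p = 0.000161), and it was the 1 of the 18 genes still called.

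**Figure D4:**
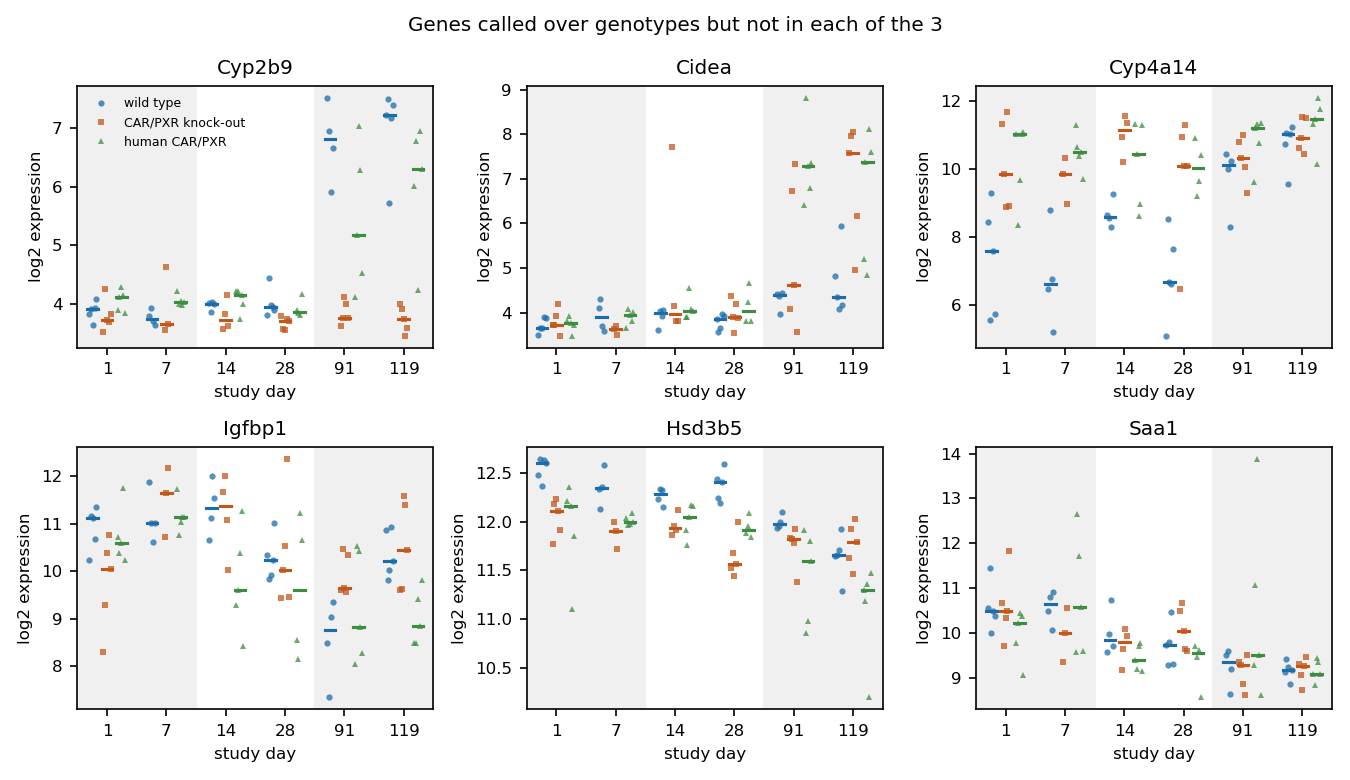
Log2 expression of 6 genes called late against early over genotypes but not in each genotype, 1 point per animal, by study day; short bars are medians and shaded days are the early and late ones. Late Cyp2b9 is high in wild type and in most human CAR/PXR animals and not in the knock-out, whereas late Cidea is high in human CAR/PXR and in most knock-out animals.

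The other interaction genes moved less. Nucb2 (nesfatin), a calcium-binding protein, fell by 1.20 in wild type, by 0.54 in the human CAR/PXR line and by 0.29 in the knock-out, where it was not called (interaction adjusted p = 0.00879). Ces1g, a carboxylesterase, rose by 0.63 in wild type, against 0.13 and 0.15 in the knock-out and the human CAR/PXR line. Aldh1a1, a retinaldehyde dehydrogenase, rose by 0.34 in wild type, against 0.01 and 0.12. Akr1d1, a steroid reductase, had differences of 0.33, -0.22 and 0.09, Mif, a cytokine, -0.02, 0.31 and -0.11, Rab24 -0.16, 0.18 and -0.03, and Polr2c -0.17, 0.12 and -0.13. Igfbp1, an insulin-suppressed binding protein, fell by 1.18 over genotypes, with differences of -1.44, -0.19 and -1.83 and an interaction adjusted p of 0.236.

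Cholesterol synthesis genes differed in wild type: 15 of 21 were higher late, against 6.82% of all genes, and none lower, with a median of 0.46. In the knock-out and the human CAR/PXR line none was called, with medians of -0.07 and -0.13. The interaction called 1 of the 21. Mvd, which makes isopentenyl diphosphate, had differences of 0.84, 0.31 and 0.14. The mean level of the list in early wild-type livers was 9.28 to 9.74 on day 1 and 9.56 to 10.26 on day 7, and 10.02 to 10.32 late. In early knock-out livers it was 9.54 to 10.79. Without the animals with pancreatic signal, 4 of which were wild-type animals of day 1, 1 of the 21 genes was called in wild type, and the median was 0.25.

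Antigen presentation genes of MHC class II were higher late in 5 of 6 genes, against 14.5% of all genes, with a median of 0.50. H2-Aa rose by 0.63, with 0.83 in wild type and 0.96 in the knock-out; in the human CAR/PXR line the difference was 0.16, and 0 of the 6 genes were called there. The interaction did not call H2-Aa (adjusted p = 0.11). Ighm, the heavy chain of immunoglobulin M, was a shared rise, at 1.42 ± 0.19, with overlap in every genotype. Without the animals with pancreatic signal Ighm was 0.95 higher in wild type, not called (adjusted p = 0.157), and so not shared. It read 7.67 to 9.72 early (median 8.51) and 8.86 to 10.99 late (median 9.42) in wild type. Of 5 B and plasma cell markers 3 were higher, against 14.5% of all genes, with a median of 0.27. Their mean level was 5.53 to 6.31 early and 5.88 to 7.82 late, and its highest late animal, 5028 of the human CAR/PXR line, also had pancreatic enzymes at 9.56. Without the animals with pancreatic signal 2 of 5 were called and the median was 0.15. Of 13 Kupffer cell and macrophage markers 1 was higher, and none of 9 stellate cell markers was called.

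Neighbouring days were compared to see how even each period was. Day 7 against day 1 called 224 genes (1.8%), 150 higher (1.21%) and 74 lower (0.595%), 7 of them shared; the split was 154 and 155 after quantile normalization, and without knock-out animal 3010 it called 52 genes. Day 119 against day 91 called 1225 genes (9.85%), 397 higher (3.19%) and 828 lower (6.66%; 565 and 615 after quantile normalization), and 592 without the animals with pancreatic signal; without knock-out animal 3023 it called 718. Of the 293 shared genes 24 were among the 1225. Serpinb1a rose further, by 0.54, with 0.57 but no call without the animals with pancreatic signal (adjusted p = 0.0843). The largest changes between those days included Jchain, the joining chain of secreted antibodies, at 0.81, and the nuclear RNA Malat1 at -0.68. Without those animals the Jchain difference between days 91 and 119 was 0.26 and not called (adjusted p = 0.105), while Malat1 was at -0.66 (adjusted p = 0.0278). The comparisons of the middle days share animals with the main one, and their values are given side by side. Middle against early called 129 genes (1.04%) and late against middle 1773 (14.3%). Cd36 was 0.31 higher on the middle days than early and 1.09 higher late than on the middle days. For Gnai1 these values were 0.38 and 1.20, for Osbpl3 0.29 and 1.08, for Enho -0.58 and -1.18, and for Selenbp1 -0.21 and -0.70. Over the 293 shared genes, the median share of the late difference that was reached on the middle days was 34.9%.

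Knock-out animals given phenobarbital, which share no liver with the untreated ones but were killed on the same days, offered a second look at the same weeks. This group had 9 early and 9 late animals, the latter including day 119, after dosing had ended. In it 273 genes (2.2%) were called, 165 higher (1.33%) and 108 lower (0.868%; 142 and 143 after quantile normalization), and 98 without animal 4005. Of the 188 shared rises 47 were called higher there and 0 lower, and 174 had a positive difference, against 50.8% of all genes. Of the 105 shared falls 28 were called lower and 0 higher, and 98 had a negative difference. Gnai1 rose by 1.39, Serpinb1a by 1.48, Cav1 by 1.40, Zfp979 by 1.19 and G0s2 by 1.15 there. Selenbp1 fell by 0.50 (adjusted p = 0.026), Usp18 by 0.85 and Ifit1 by 0.72. Cd36 (0.60, adjusted p = 0.18) and Enho (-0.57, adjusted p = 0.25) were not called. Of the heat shock chaperones 6 of 11 were higher, against 1.33% of all genes, with a median of 0.60. Treated array 4024 (day 91) was nearly identical to treated array 4019 (day 28): the SD of their log2 difference was 0.056, against at least 0.144 in other pairs of that arm. Without 4024, 54 rises and 33 falls were called, of 339 genes in all.

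**Figure D5:**
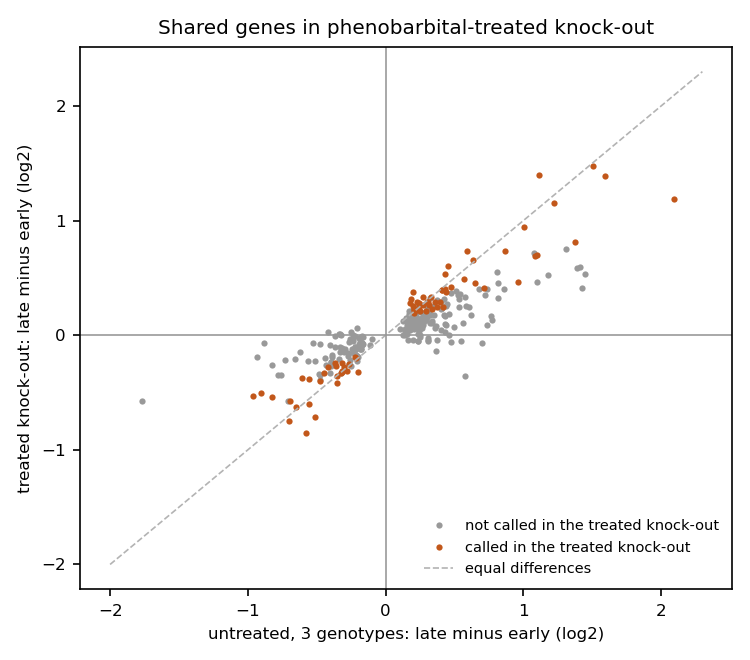
Each point is 1 of the 293 shared genes: its late minus early difference in untreated mice over 3 genotypes (x, log2) against that in phenobarbital-treated knock-out mice (y, log2). Coloured points were called in the treated knock-out, and the dashed line marks equal differences; 174 of 188 rises lie above 0 and 98 of 105 falls below it.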

How the data were processed

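Liver RNA was measured on Affymetrix mouse arrays, 1 per animal. The deposited values are log2 expression made by the authors with RMA, per the submitters' processing notes, with a version and array batches not given in the sources used here. RMA shrinks differences of weak probe sets and equalises array distributions, so that a global shift would not be seen. They ran from 2.11 to 15.07, with array medians of 5.146 to 5.231. The number of animals limits the precision.

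Of 45101 probe sets 34958 had 1 symbol in the platform annotation; 932 with several and 9211 with none were left out. A gene was read from its probe set of highest mean, and 12437 of 18193 genes, above their array's median on at least 3 untreated arrays, were tested. In Zfp979, Osbpl3, Cyp2b9 and Cidea every early level lay below the array medians, so that they needed late animals to pass. Tests used limma 3.58.1 in R 4.3.3 (lmFit, eBayes, two-sided, Benjamini-Hochberg, adjusted p under 0.05), on the 56 untreated arrays with period and genotype, or with period within genotype and its interaction. Errors are standard errors. No batch variable was used. The code was tested on simulated data. Replicates are separate animals per the labels. The smallest SD of a log2 difference between 2 untreated arrays was 0.127, so that none was taken for a duplicate.

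Named genes are the 12 largest shared rises and falls, the 5 largest each way over genotypes and between neighbouring days, up to 4 called members of each list, the 8 smallest interaction p and the targeted genes; predicted gene models were not named. Cox19 and the list members Fitm2, Mogat1, Plin2, Angptl4, Hspa8 and Aldh1a7 were added after their values were seen. Members and lists were chosen with earlier results of these data known. The alternatives were another normalization, other filters, probe set averaging, other priors, wider or blocked models, and leaving out days, genotypes and animals.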

Additional observations from a re-analysis of the deposited data

Results flagged for a closer look

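Outlying animals were looked for in 210 groups of a genotype and period, over the 24 genes of largest shared change and 11 lists. In 21 groups the highest or lowest animal stood far from its neighbour, by Dixon's test of the gap over the range of the group at its 95% critical value. By chance that test marks about 1 in 20 groups, and the groups here share animals, so that the marks are not independent. The causes were not tested.

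Knock-out animal 3025 of day 91 accounted for 6 of them: late Cav1 was 6.62 (next 8.60), Enho 8.46 (6.81), Fitm1 8.48 (9.47), Serpinb1a 6.44 (7.87), Pde5a 3.99 (4.51), and the mean of the PPARα list 9.68 (10.19). All but Pde5a lay towards the early level. Cav1 and the PPARα list lay beyond it, below every early knock-out animal (lowest 6.84 and 9.79).

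Human CAR/PXR animal 5028 of day 119 was high in Il6ra (7.73, next 7.06), in heat shock chaperones (11.58, next 10.74), in B and plasma cell markers (7.82, next 6.38) and in pancreatic enzymes (9.56, next 5.36). Animal 5023 of day 91 was high in Fgl1 (13.13, next 11.78) and in acute phase proteins (12.05, next 11.14). In the same line Pde5a was high in animal 5008 early (5.60, next 5.14) and in animal 5021 late (4.93, next 4.61), and pancreatic enzymes in animal 5004 early (6.68, next 5.36).

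In the knock-out, animal 3009 was high in Cyp39a1 early (9.60, next 9.01), animal 3010 was low in Lifr (11.43, next 11.78) and high in heat shock chaperones (11.17, next 10.39), and animal 3001 was low in cholesterol genes (9.54, next 10.20). Animal 3029 was low in Serpina7 late (8.96, next 9.84), and animal 3028 high in B and plasma cell markers (7.53, next 6.56).

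The late minus early difference varied between genotypes, by the interaction test, for Cyp2b9 (adjusted p = 2.241e-06), for Aldh1a1, Ces1g, Mif and Nucb2 (each adjusted p = 0.008788), for Rab24 (0.01497), Akr1d1 (0.02134) and Polr2c (0.03256). Without the animals with pancreatic signal, Cyp2b9 alone of these genes was still called by that test.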

How the results depend on the processing

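Over genotypes 3427 genes were called. With 12 means of genotype and day as samples the count was 1651, without day 1 it was 2151, without day 119 it was 2023 and without wild type 1827. All 293 shared genes were called with the same sign in those 12 means. They were chosen in the same animals, so that the choice itself favoured this outcome, which is no separate check. With genotype-by-day groups as a random block (correlation 0.0808) the calls were 1166 in wild type, 505 in the knock-out, 411 in human CAR/PXR and 146 shared. Without day 1 these counts were 805, 306, 254 and 79. Without day 119 they were 631, 744, 380 and 85; the knock-out count was then within 1.5 times the main one. Without the animals with pancreatic signal, an alternative chosen after seeing the data, they were 798, 626, 775 and 142, with 592 for day 119 minus day 91 and 2 for the interaction. With dim genes kept, day 7 minus day 1 called 140.

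Leaving out 1 animal at a time gave 3221 to 3532 calls over genotypes, 1529 to 2058 in wild type, 752 to 1190 in the knock-out, 649 to 1022 in human CAR/PXR and 256 to 342 shared. It gave 7 to 42 for the interaction, with 19 animals moving it by over 1.5 times, 52 to 284 for day 7 minus day 1, 718 to 1584 for day 119 minus day 91, 95 to 211 for middle minus early, 1592 to 1935 for late minus middle and 98 to 386 for the treated knock-out. The interaction count was lowest without animal 1001 and highest without animal 5028.

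Of 170 named genes 157 were called over genotypes, and 11 of these lost the call when some single animal was left out. More lost it without day 119 (47), wild type (44) or day 1 (43), with the 12 means as samples (42) and without human CAR/PXR (28) or the animals with pancreatic signal (26). Without day 7, day 91 or the knock-out 21 to 22 did, with the random block 19, and under each other setting at most 8. Lpin1 turned to 0.0611 without day 7 and Mzb1 to -0.0031 without day 119. None of the 170 changed sign after quantile normalization. Array signal limits weak genes, whose differences RMA compresses. No paired analysis was possible because each animal was sampled once and animal numbers pair none.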
